A study of Mus musculus with 3 samples.

Results

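CD8+ and CD4+ T cells were compared in the spleens of mice with graft-versus-host disease (GVHD) that had received saline and no immune suppressant. All cells of the 3 saline pools that the depositors had placed in their CD8 table or in their CD4 table were taken, apart from the TEa cells of the CD4 table. That left 4639 CD8+ and 4058 CD4+ cells, 8697 of the 21204 cells in the series, and 123 saline TEa cells were left out. Single-cell RNA and T cell receptor (TCR) libraries had been made from T cells sorted on day 7 after transplantation. Recipients were irradiated B6D2F1 mice (H-2b/d) given T cell-depleted bone marrow and polyclonal wild-type T cells from B6 donors (H-2b), together with TEa TCR transgenic CD4+ T cells. Saline was given from day 0 to day 6, and the other captures of the series came from recipients given cyclosporine (CSA), a calcineurin inhibitor, at 5 or 50 mg/kg over the same days. Each group held 6 mice, spleens of 2 mice made a pool marked with hashtag antibodies, and the 3 pools of a group went into 1 droplet capture. CD4+ and CD8+ cells were sorted and mixed in equal parts before the capture, so the ratio of CD8+ to CD4+ cells was set by the design and is not a result. The sort gated on CD4, CD8 and CD90.2, and B6 and B6D2F1 mice both carry CD90.2, so this marker alone does not separate donor from host T cells, although the study describes the sorted CD4+ cells as donor cells. No ungrafted or syngeneic recipients were analysed here.

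CD8+ T cells recognise peptides on MHC class I molecules and kill by releasing perforin and granzymes at the contact with a target. CD4+ T cells recognise peptides on MHC class II molecules and help other cells through cytokines and CD40 ligand, and some become follicular helper (TFH), regulatory or TH17 cells. In the thymus the factor ThPOK, encoded by Zbtb7b, maintains the CD4 fate, while RUNX3 represses Cd4 and supports the CD8 fate. In acute GVHD both lineages respond to recipient MHC and expand in the spleen during the days after transplantation.

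The pools gave 1422, 1615 and 1602 CD8+ cells and 1135, 1479 and 1444 CD4+ cells. Raw unique molecular identifier (UMI) counts were summed per pool and lineage, which gave 6588339, 7980541 and 7715571 UMIs for CD8+ cells and 3994968, 5612202 and 5446358 for CD4+ cells. Median UMIs per cell lay between 4026 and 4254 in the CD8 pools and between 2966 and 3173.5 in the CD4 pools. The captures share 58 to 85 cell barcodes with each other, and 0 barcodes stood in both saline tables. Both lineages of a pool came from the same mice and the same capture, so every test was paired by pool, and n was 3 pools a side. P-values therefore measure the spread between pools of mice. Levels are given as CPM, the UMI counts of a gene scaled to a common library total, and differences as log2 of CD8 over CD4 from edgeR's quasi-likelihood test, adjusted by Benjamini-Hochberg over all genes tested.

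The coreceptors matched the labels, but the sort had used their proteins, and their RNA may have been used to select the cells, which no source used here states. Every cell of the CD4 table held at least 1 Cd4 UMI and 0 Cd8a UMIs, and every cell of the CD8 table at least 1 Cd8a UMI and 0 Cd4 UMIs. Antibody UMIs split the same way, with CD4 antibody at a median of 338 in CD4+ and 10 in CD8+ cells, and CD8 antibody at a median of 92 in CD8+ and 6 in CD4+ cells. These values are therefore a description with no test. Cd8b1, which encodes the beta chain of CD8, had not been selected on in this way. It stood at 1313 ± 50.0 CPM (SD, n = 3) in CD8+ and 147 ± 6.28 CPM in CD4+ cells, and 1651 of the 4058 CD4+ cells (40.7%) held at least 1 Cd8b1 UMI. CD4+ cells held 0.583 Cd8b1 UMIs per cell in the naive cluster, 0.574 in the cycling clusters and 0.537 in the others, although cycling cells held 5788 UMIs on average and naive cells 2291. A level that did not follow the depth of the cells was taken as the background of RNA free in the droplets, which was not tested. The CD4 table held only cells with 0 Cd8a UMIs, which may also bear on this level. Some values below are set beside it.

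Of 10612 genes tested, 4561 (43.0%) differed between the lineages at an adjusted p under 0.05, with 2291 (21.6%) higher and 2270 (21.4%) lower in CD8+ cells. The 3 CD8 pools did not overlap the 3 CD4 pools for 5301 genes (50.0%). With the added rule of at least a 2-fold difference, 709 genes (6.68%) were called, 234 (2.21%) higher and 475 (4.48%) lower in CD8+ cells. The larger differences therefore lay more often on the CD4 side, while the calls by p alone were split evenly. The part of free RNA in this split was not tested. The median over all tested genes was a log2 difference of -0.003. DESeq2 called 2152 genes, all of them among the 4561.

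Among genes of at least 50 CPM in the higher lineage, and beyond coreceptors and TCR segments, the largest excess in CD8+ cells was shown by Itgax, Prf1, Klrk1, Jaml, Gzmk, Cx3cr1, Gzmb, Gzma, Tm6sf1 and Klrc1. On the CD4 side the order was led by Cd40lg, Sostdc1, Asb2, Cxcr5, Il6ra, P2rx7, Il21, Maf, Ccl1 and Izumo1r. The plot of these 20 genes shows that no CD8 pool overlapped a CD4 pool for any of them, which was part of the rule that chose them.

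**Figure D1:**
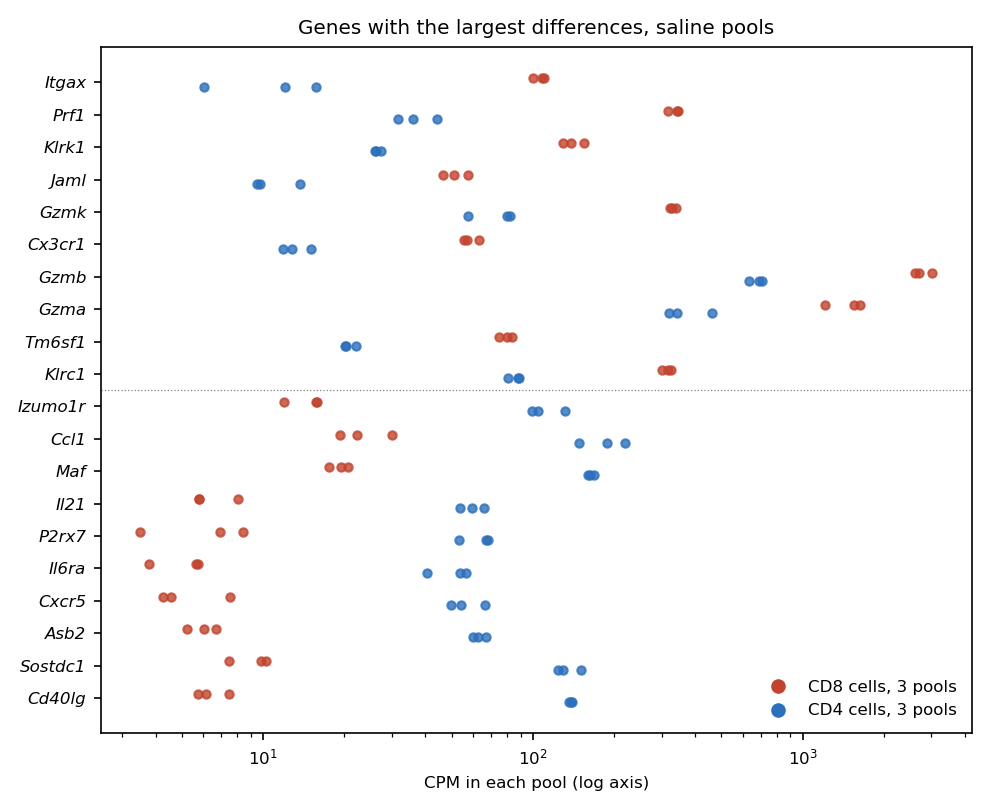
CPM (log axis) of the 10 genes with the largest excess in CD8+ cells (above the dotted line) and the 10 with the largest excess in CD4+ cells (below it), 1 point for each of the 3 saline pools of each lineage. For Prf1 the CD8 pools lie at 315.8 to 344.3 CPM and the CD4 pools at 31.6 to 44.0, and for Cd40lg the order is the reverse, at 5.76 to 7.49 and 136.5 to 139.7.

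Among the factors that set or keep the lineages, 14 were tested, and 4 were higher and 8 lower in CD8+ cells (median log2 difference -0.22). Zbtb7b stood at 20.5, 20.7 and 17.7 CPM in the CD8 pools and at 79.1, 80.7 and 84.0 CPM in the CD4 pools, a log2 difference of -2.05 (SE 0.080, adjusted p = 1.33e-21). Runx3 went the other way, at 204, 199 and 212 CPM against 131, 140 and 142 CPM (log2 difference 0.57, SE 0.043). Runx3 in CD4+ cells thus stood at 67.3% of its CD8 level, where Cd8b1 in CD4+ cells stood at 11.2%. Zbtb7b in CD8+ cells stood at 24.1% of its CD4 level, and Cd8b1 gives no background for that direction. Cbfb, the partner of RUNX proteins, was slightly higher in CD8+ cells (0.26), but at -0.058 outside the cycling clusters (adjusted p = 0.66), and Runx1 was lower (-0.78). Gata3, needed for CD4 commitment and TH2 cells, was lower in CD8+ cells at 53.9 against 93.7 CPM (-0.79), and the chromatin organiser Satb1 at 106 against 221 CPM (-1.06). Tox, which acts in CD4 commitment and in exhausted T cells, was higher in CD8+ cells by 0.24.

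The cytotoxic granule genes were higher in CD8+ cells as a group, with 11 of 17 tested higher and 4 lower (median 0.83). Prf1, which encodes the pore-forming protein perforin, was counted at 340.9, 344.3 and 315.8 CPM in the CD8 pools and at 44.0, 31.6 and 36.0 CPM in the CD4 pools (log2 difference 3.18). Gzmb, the granzyme that cleaves caspases, stood at 3024, 2602 and 2691 CPM against 705.1, 632.5 and 687.7 CPM (2.03, SE 0.029, adjusted p = 6.82e-35). All CD8 pools lay above all CD4 pools for both genes, which was part of the rule that placed them among the largest differences. Gzma stood at 1462 ± 219 against 374 ± 75.7 CPM (1.95), and Gzmk at 330 ± 8.95 against 73.6 ± 13.9 CPM (2.14). The granule membrane protein gene Nkg7 was higher in CD8+ cells at 2440 ± 41.1 against 1254 ± 67.2 CPM (0.96). The genes that were lower in CD8+ cells were Srgn (-0.85), the proteoglycan core on which granzymes are stored, Stx11 (-0.53) and Lamp1 (-0.25), which serve vesicle fusion and lysosomes in many cells, and Gzmc (-0.52), at 15.5 against 21.2 CPM. Gzmc lies in a cluster with near-identical granzyme genes, so its reads may have been split between copies.

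Each cytotoxic gene was then set beside the naive clusters of the same capture. Gzmb was counted at 1.85, 5.95 and 19.7 UMIs per cell in naive, other and cycling CD8+ cells, and at 1.27, 1.93 and 4.66 in the same groups of CD4+ cells. Prf1 followed the same order in CD8+ cells, at 0.165, 0.961 and 2.18 UMIs per cell. In CD4+ cells Prf1 stood at 0.155, 0.111 and 0.229 UMIs per cell, lowest outside cycling and highest in the cycling cells. Gzma stood at 0.904, 1.11 and 2.34 UMIs per cell in naive, other and cycling CD4+ cells and at 1.24, 3.47 and 10.1 in CD8+ cells. The naive clusters held 115 CD8+ and 110 CD4+ cells, with medians of 3499 and 1981 UMIs per cell. Within the naive clusters the lineages differed by -0.12 for Gzma and by 0.02 for Gzmb on the log2 scale, and neither passed the test. After each cell was thinned to 2000 UMIs, which kept 4518 CD8+ and 3663 CD4+ cells, Prf1 was found in 40.0% of CD8+ and 7.05% of CD4+ cells. Naive CD8+ and CD4+ cells gave 9.36% and 9.98%. Without thinning the shares over all cells were 60.1% and 11.1%. Gzmb was found in 87.5% and 63.5% of thinned cells, against 55.0% in naive CD8+ and 54.2% in naive CD4+ cells. Gzma was found in 43.1% of CD4+ cells and in 45.4% of naive CD4+ cells. Thinning lowers a background that does not follow depth in deep cells more than in naive cells, so these shares do not show whether a CD4 level lies above the background.

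**Figure D2:**
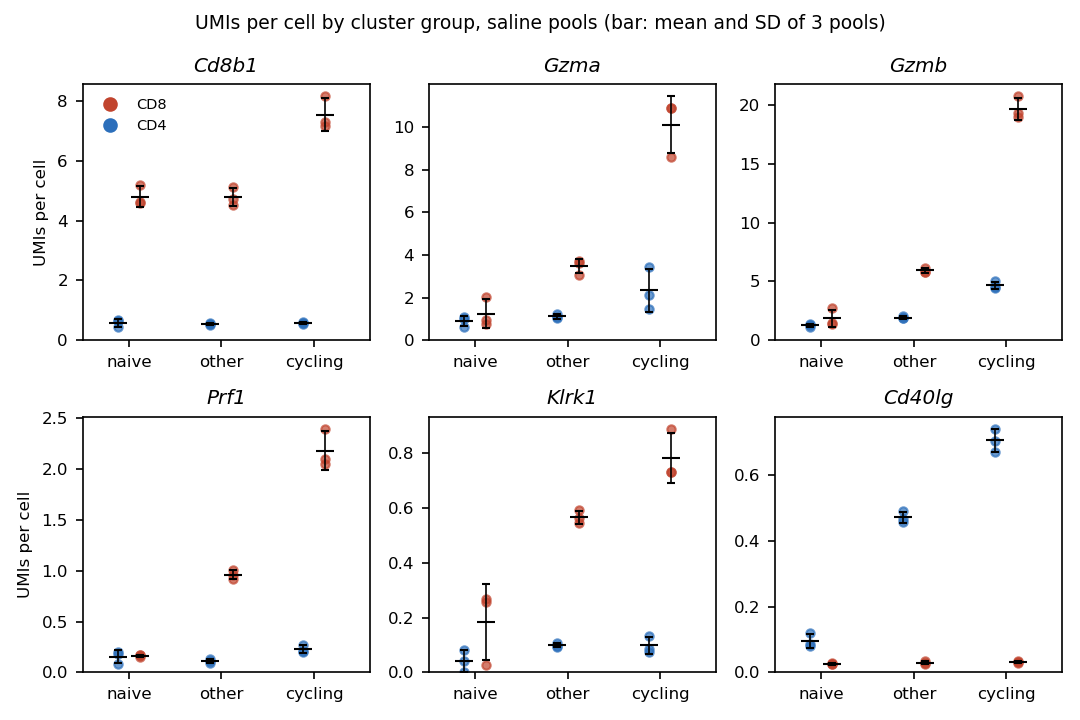
Mean UMIs per cell of the named genes in the naive cluster, in the other clusters outside cycling and in the cycling clusters of each lineage; points are the 3 saline pools, bars their mean and SD. Gzmb goes from 1.85 to 19.7 UMIs per cell over these groups in CD8+ cells and from 1.27 to 4.66 in CD4+ cells, while Cd8b1 stays between 0.537 and 0.583 in CD4+ cells.

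Receptors shared with natural killer (NK) cells were also higher in CD8+ cells, 10 of 14 tested, and 1 was lower (median 1.13). Klrk1 encodes NKG2D, which binds stress ligands, and stood at 138, 129 and 155 CPM in the CD8 pools and at 26.3, 25.9 and 27.3 CPM in the CD4 pools (2.41, SE 0.066). Klrd1, which encodes CD94, and its partners Klrc1 and Klrc2 were higher by 1.05, 1.87 and 1.96, and Crtam, an adhesion receptor of activated killer cells, by 2.24. Klrc1 and Klrc2 are close copies and their reads may have been split between them. The NK receptor gene Klrb1f was lower in CD8+ cells at 2.08 against 6.99 CPM. Among NK markers, Klra8 was at 0 in every pool, Ncr1 was at most 0.518 CPM, and Klrb1c lay at 4.76 to 8.29 CPM in both lineages. The summed NK marker level was 71.5 to 82.9 CPM in the CD8 pools and 35.5 to 44.0 in the CD4 pools, and the part that moved was Eomes, which activated CD8+ T cells also express. The integrin gene Itgax, which encodes CD11c, led the genes in excess in CD8+ cells, at 110, 100 and 108 CPM against 15.8, 6.04 and 12.1 CPM (3.29). The myeloid markers Lyz2 and Csf1r lay at 3.92 to 5.96 CPM in both lineages. S100a8 and S100a9, of the same list, lay at 29.9 to 52.0 CPM over the pools of both lineages. The summed myeloid list was 312 to 343 CPM in the CD8 pools and 270 to 288 CPM in the CD4 pools, with Cd68 (37.4 against 13.2 CPM) and Cst3 (187 against 161 CPM) higher in CD8+ cells. The part of this difference in the Itgax result was not tested.

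Of the death ligands, Fasl was higher in CD8+ cells at 80.4, 80.1 and 75.7 CPM against 36.3, 31.6 and 38.2 CPM (1.16). The other members, Tnf (20.8 against 63.9 CPM, -1.63), Tnfsf10, which encodes TRAIL (30.8 against 52.9 CPM, -0.79), and Lta, which encodes lymphotoxin alpha (2.68 against 10.8 CPM, -2.01), were lower.

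Promoter sequences are shown for the CD8-high genes Gzmb, Prf1, Klrk1 and Cx3cr1 and for the CD4-high gene Il21. They were looked at because RUNX proteins bind short motifs. The RNA of Runx3 and Runx1 differed between the lineages, in opposite directions. The 250 bases before the annotated start were taken from RefSeq (GRCm38.p6, the build that mm10 names), 5′ to 3′ on the strand of the gene, with the RUNX letters TGTGGT and TGCGGT on either strand in capitals. These letters were searched together with the T-box letters GTGTGA, the AP-1 letters TGANTCA and the NFAT letters TGGAAA. The table held promoters for 9 of the 10 genes with the largest CD8 excess and for 6 of the 10 with the largest CD4 excess. For Gzmb the window was chr14:56262335-56262584 on the minus strand, for Prf1 chr10:61297586-61297835 on the plus strand, for Klrk1 chr6:129623865-129624114 on the minus strand, for Cx3cr1 chr9:120068297-120068546 on the minus strand and for Il21 chr3:37232637-37232886 on the minus strand.
Gzmb: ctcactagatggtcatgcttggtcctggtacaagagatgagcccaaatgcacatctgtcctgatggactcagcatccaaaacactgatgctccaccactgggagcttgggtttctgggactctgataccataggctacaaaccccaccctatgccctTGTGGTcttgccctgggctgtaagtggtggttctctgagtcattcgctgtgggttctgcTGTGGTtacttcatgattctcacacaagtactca
Prf1: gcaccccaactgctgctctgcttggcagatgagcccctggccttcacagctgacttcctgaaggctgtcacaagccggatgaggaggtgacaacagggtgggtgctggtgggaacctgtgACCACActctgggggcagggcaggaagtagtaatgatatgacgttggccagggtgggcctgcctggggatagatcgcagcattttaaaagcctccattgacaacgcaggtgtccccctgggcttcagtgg
Klrk1: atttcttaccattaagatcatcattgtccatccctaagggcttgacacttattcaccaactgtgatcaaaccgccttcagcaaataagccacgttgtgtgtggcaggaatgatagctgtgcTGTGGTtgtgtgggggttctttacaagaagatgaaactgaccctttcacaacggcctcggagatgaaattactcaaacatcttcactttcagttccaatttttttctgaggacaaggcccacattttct
Cx3cr1: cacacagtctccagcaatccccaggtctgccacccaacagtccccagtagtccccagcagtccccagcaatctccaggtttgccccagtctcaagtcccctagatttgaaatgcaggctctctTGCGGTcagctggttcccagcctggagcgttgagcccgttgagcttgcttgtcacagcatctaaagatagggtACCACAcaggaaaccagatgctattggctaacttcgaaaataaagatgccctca
Il21: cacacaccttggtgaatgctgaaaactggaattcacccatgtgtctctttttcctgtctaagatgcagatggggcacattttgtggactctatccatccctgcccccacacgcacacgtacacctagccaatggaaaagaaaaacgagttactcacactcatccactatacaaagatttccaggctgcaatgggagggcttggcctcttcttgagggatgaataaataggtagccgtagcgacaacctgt

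The RUNX letters were found 93 and 34 bases before the start of Gzmb, 130 before that of Prf1, 129 before that of Klrk1, and 127 and 54 before that of Cx3cr1, and not in the window of Il21. Among promoters not printed, those of the CD8-high genes Gzmk and Itgax held 0 matches to these letters. That of the CD4-high gene Izumo1r held 1. The RUNX letters stood in 7 of the 9 promoters of CD8-high genes (77.8%) and in 1 of the 6 of CD4-high genes (16.7%). Of the 8253 promoters of tested genes 1516 (18.4%) held them. T-box letters stood in 2 of 9, 2 of 6 and 8.80% of these promoters, AP-1 letters in 2 of 9, 1 of 6 and 3.84%, and NFAT letters in 3 of 9, 3 of 6 and 14.7%. The matches are a description of the letters in the window, made with no test, and do not show that a factor binds there.

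Genes of T cell help were lower in CD8+ cells almost throughout. Of 13 helper cytokines and ligands tested, 12 were lower and 1 higher (median -1.94). Cd40lg, whose product licenses B cells and dendritic cells, was counted at 7.49, 6.15 and 5.76 CPM in the CD8 pools and at 138.9, 139.7 and 136.5 CPM in the CD4 pools. The fitted difference was -4.43 (adjusted p = 5.94e-31), or 21.5-fold higher in CD4+ cells. Cd40lg was found in 22.9% of CD4+ and 1.41% of CD8+ cells after thinning to 2000 UMIs, and in 34.1% and 2.83% without thinning. Naive CD8+ cells gave 1.83% after thinning. In CD8+ cells it stood at 0.0262, 0.0300 and 0.0316 UMIs per cell in naive, other and cycling clusters, near the same level in each. CD4+ cells held 0.0952, 0.472 and 0.706. Il21, the cytokine of TFH cells, was counted at 5.81, 5.77 and 8.11 CPM against 53.8, 66.1 and 59.5 CPM (-3.19). Il2, the T cell growth factor, was low in both lineages at 0.476 against 6.47 CPM (-3.78). Tnfsf11, which encodes RANKL, and Tnfsf8, which encodes CD30 ligand, were lower in CD8+ cells by 3.72 and 2.66 on the log2 scale, and Csf2, which encodes GM-CSF, stood at 9.47 against 37.6 CPM. Ifng was the member that was higher in CD8+ cells. Its pools overlapped, at 134, 108 and 144 CPM against 146, 65.7 and 86.5 CPM (0.43, adjusted p = 9.56e-05), and DESeq2 gave an adjusted p of 0.324 for it.

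TFH genes were the clearest group on the CD4 side, with 18 of 19 tested lower in CD8+ cells and 1 higher (median -2.06). Cxcr5, the receptor that leads cells to B cell follicles, was counted at 4.28, 7.53 and 4.58 CPM against 54.3, 66.5 and 49.6 CPM (-3.36). Bcl6, the repressor that defines TFH cells, stood at 4.95 against 25.2 CPM (-2.36), Sostdc1 at 9.20 against 135 CPM (-3.86), and Maf at 19.3 against 164 CPM (-3.08). CD8 pools lay below CD4 pools for each of these genes, which for Cxcr5, Sostdc1 and Maf was part of the rule that chose them. Over all genes tested the pools did not overlap for 50.0%. Pdcd1, which encodes PD-1 and is also a gene of activated CD8+ cells, was the member that was higher in CD8+ cells. The CD4 cells included a TFH cluster with 18.1% of them, a Treg cluster with 0.469% and a TH17 cluster with 0.782%. Without these 3 clusters 18 of 19 TFH genes were still lower in CD8+ cells and 1 higher (median -1.60), and Cxcr5 differed by -2.63, Il21 by -3.08 and Maf by -3.06. Helper cytokines and ligands were then lower in 11 of 12 and higher in 1. Of all 10535 genes tested in this set 2061 were lower and 1962 higher. The CD4 clusters that stayed in held Cxcr5 at 3.97 to 104 CPM, against 219 CPM in the TFH cluster. This set is therefore not free of CD4+ cells with TFH RNA.

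Genes of regulatory T cells were lower in CD8+ cells in 11 of 13 tested and higher in 1 (median -0.99). The members with the largest differences were not restricted to regulatory cells. Ebi3, a subunit of IL-27 and IL-35, stood at 2.06 against 25.6 CPM (-3.62), Izumo1r, which encodes folate receptor 4, at 14.5 against 112 CPM (-2.94), and Tnfrsf4, which encodes OX40, at 38.4, 37.8 and 38.7 CPM against 251, 251 and 249 CPM (-2.71). Foxp3, the defining factor, was low in both lineages at 3.51, 5.90 and 2.62 CPM against 5.50, 8.17 and 10.1 CPM, and its pools overlapped (-0.99, adjusted p = 0.000784). Without pool 3 the Foxp3 difference was -0.53 (adjusted p = 0.118), and without the TFH, Treg and TH17 clusters -0.02 (adjusted p = 0.962). Of 7 TH17 genes tested, 6 were lower in CD8+ cells (median -1.96), among them Il1r1 at 0.875 against 10.1 CPM and Ahr at 10.3 against 39.5 CPM.

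**Figure D3:**
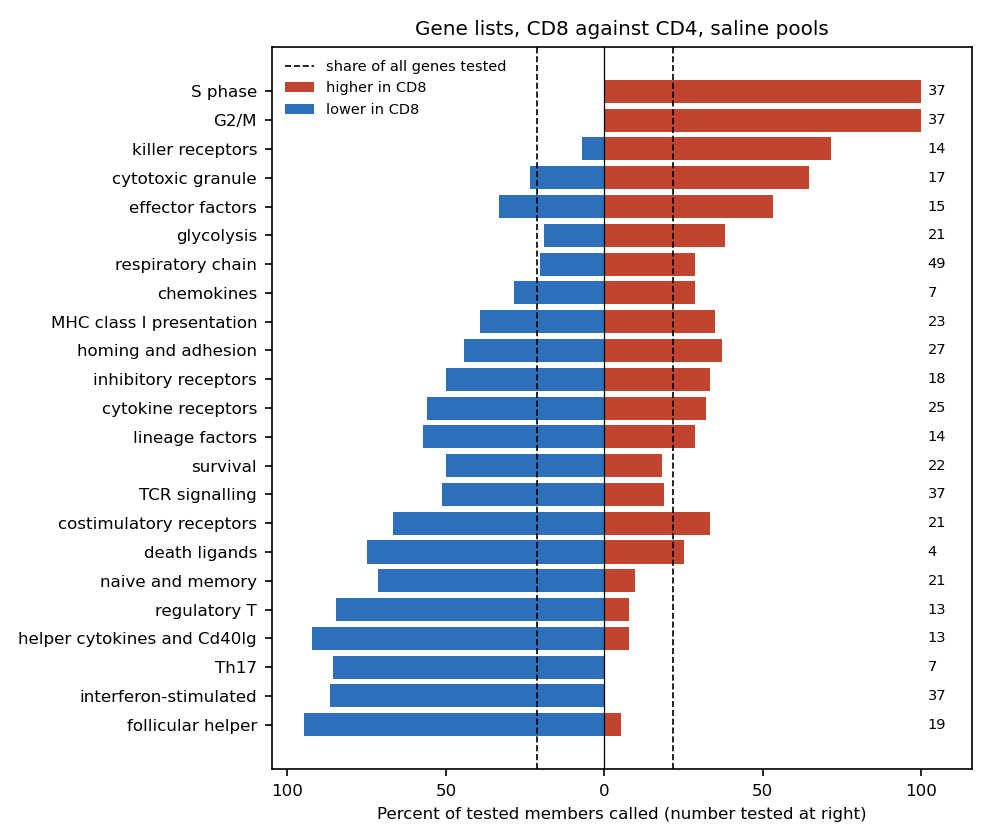
Percent of the tested genes of each list that were higher (right) or lower (left) in CD8+ cells at an adjusted p under 0.05, with dashed lines at the shares over all genes tested (21.6% higher, 21.4% lower). TFH genes and helper cytokines lie almost wholly on the left, both cell cycle lists wholly on the right.

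Factors of effector differentiation were split, with 8 of 15 higher and 5 lower in CD8+ cells (median 0.12). Eomes, the T-box factor of cytotoxic and memory cells, was counted at 42.8, 49.1 and 48.4 CPM against 11.3, 14.7 and 9.15 CPM (2.00). Its relative Tbx21 differed less, at 204 against 145 CPM (0.49). Prdm1, which encodes BLIMP-1, and Ikzf3, which encodes Aiolos, were higher in CD8+ cells by 1.08 and 1.07. The AP-1 family factor Batf (-0.42), its partner Irf4 (-0.58), Bhlhe40 (-0.58), which promotes cytokine production, and Id3 (34.7 against 104 CPM, -1.56) were lower.

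Genes of naive and memory cells were lower in CD8+ cells in 15 of 21 tested and higher in 2 (median -0.63). Tcf7, which encodes TCF1, a factor of self-renewing cells, was counted at 68.1, 80.1 and 83.2 CPM against 250, 281 and 221 CPM (-1.69). Ccr7, the receptor for entry into lymph nodes, stood at 19.9 against 68.4 CPM (-1.77) and Il7r, the IL-7 receptor, at 138 against 354 CPM (-1.36). Ly6c2, which encodes Ly6C, was higher in CD8+ cells at 586, 436 and 506 CPM against 191, 174 and 211 CPM (1.39), while its close copy Ly6c1 was lower, at 1.61 against 10.3 CPM, and reads may have been split between them. Outside the cycling clusters the naive and memory list was lower in 9 and higher in 4 of 21 (median -0.10), so the difference of the list was smaller there.

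Inhibitory receptors differed in both directions, with 6 of 18 higher and 9 lower in CD8+ cells (median -0.22). Havcr2, which encodes TIM-3, was counted at 252, 237 and 222 CPM against 84.6, 69.5 and 71.0 CPM (1.66). Cd160 stood at 165 against 68.1 CPM (1.27), Lag3 at 251 against 129 CPM (0.96) and Pdcd1 at 416 against 267 CPM (0.65). Ctla4 (61.7 against 107 CPM), Btla (-1.43), Cd200 (-1.54) and Tigit (255 against 298 CPM, -0.22) were lower in CD8+ cells. The Tigit difference did not pass outside the cycling clusters (-0.04, adjusted p = 0.578) or within them (-0.05, adjusted p = 0.622). Of 21 costimulatory receptors, 7 were higher and 14 lower in CD8+ cells (median -0.53). Icos stood at 206, 214 and 199 CPM against 586, 554 and 563 CPM (-1.46), and Cd28, the main costimulatory receptor, at 218 against 326 CPM (-0.58). Cd226, which encodes the adhesion receptor DNAM-1, stood at 353, 333 and 339 CPM against 155, 142 and 160 CPM (1.17), Tnfrsf9, which encodes 4-1BB, at 206 against 113 CPM, and Slamf7 at 238 against 133 CPM. For the TNF receptor family this put 4-1BB on the CD8 side and OX40 on the CD4 side.

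Among 25 cytokine receptors, 8 were higher and 14 lower in CD8+ cells (median -0.33). Il2rb, the chain shared by the IL-2 and IL-15 receptors, was higher in CD8+ cells at 797 against 567 CPM (0.49), while the high-affinity chain Il2ra was lower at 81.5 against 103 CPM (-0.33). Il6ra stood at 5.06 against 50.2 CPM (-3.31) and its signalling partner Il6st at 21.9 against 41.2 CPM. Il12rb2 (-0.61) and Il27ra (-0.64) were lower in CD8+ cells, and Il18r1 (0.27) and Ifngr1 (0.42) higher.

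Of 27 genes of homing and adhesion, 10 were higher and 12 lower in CD8+ cells (median -0.10). Cx3cr1, the fractalkine receptor of effector cells in blood, was counted at 63.1, 55.3 and 56.8 CPM against 12.8, 11.9 and 15 CPM (2.13). Itga4, the alpha 4 integrin chain that leads T cells to gut and inflamed vessels, stood at 1950.3 against 1039 CPM. Ccr4, a receptor of skin-homing CD4+ cells, stood at 0.627 against 14.8 CPM, and Gpr183, which positions cells near follicles, at 76.2 against 145 CPM. Cxcr6, a tissue-homing receptor, did not pass the test, at 351, 324 and 349 CPM against 344, 299 and 351 CPM (adjusted p = 0.324). Among 7 chemokines 2 were higher and 2 lower. Ccl5 was higher in CD8+ cells at 2189, 2149 and 2246 CPM against 1025, 956 and 989 CPM (1.15), and Xcl1, which attracts cross-presenting dendritic cells, at 75.5 against 38.2 CPM (0.98). Xcl1 differed by 1.97 outside the cycling clusters, by 0.11 within them and by -0.44 in the effector clusters named for high Cd226, where neither of the last 2 passed. Ccl1 was lower at 23.8 against 185 CPM (-2.96). Ccl3 stood at 149, 125 and 136 CPM against 244, 92.0 and 134 CPM (adjusted p = 0.333), and Ccl4 at 327, 264 and 297 CPM against 398, 239 and 299 CPM (adjusted p = 0.382). For both, CD4 pool 1 was the highest library. Without pool 1, Ccl3 was higher in CD8+ cells by 0.22 (adjusted p = 0.0129) and Ccl4 differed by 0.06 (adjusted p = 0.276). Without pool 2 both were lower, by -0.35 for Ccl3 (adjusted p = 7.60e-09) and -0.15 for Ccl4 (adjusted p = 0.00629).

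Genes of TCR signalling were lower in CD8+ cells in 19 of 37 and higher in 7 (median -0.14). The differences in the receptor and its first kinases were small, as for Cd3d (-0.14), Lck (-0.11) and Zap70 (-0.46). Egr1, a gene induced by the receptor, was counted at 29.0, 24.7 and 37.5 CPM against 91.6, 87.1 and 79.0 CPM (-1.49), and Egr2 and Nr4a1 differed by -1.45 and -1.21. Outside the cycling clusters these 3 genes differed by -0.94, -0.67 and -0.89. Nr4a2, of the same family as Nr4a1, went the other way, at 52.3, 57.7 and 44.9 CPM against 21.3, 14.9 and 16.1 CPM (1.59). The phosphatase Ubash3b (1.15) and the ubiquitin ligase Cblb (0.69), which both restrain the receptor, were higher in CD8+ cells, and Rasgrp1 (-0.55), which activates RAS, was lower.

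Interferon-stimulated genes were lower in CD8+ cells in 32 of 37 tested and higher in 0 (median -0.49). Ifi27l2a was counted at 494, 505 and 514 CPM against 1164, 1278 and 1129 CPM (-1.24) and Iigp1 at 7.79 against 27.3 CPM (-1.80). A CD4 cluster named for Isg15 held 1.67% of CD4+ cells. Without it 29 were lower and 1 higher (median -0.36). Outside the cycling clusters 14 were lower and 5 higher (median -0.15), against 11.5% and 11.1% of all genes there. Among 23 genes of MHC class I presentation 8 were higher and 9 lower in CD8+ cells (median 0.005), with H2-K1 at 2781 against 3607 CPM (-0.38) and the chaperone Canx at 508 against 359 CPM (0.50). The H2 genes are close copies, so the levels of single members are uncertain.

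Metabolic genes were called about as often as other genes, or more often, but most differences were small. Of 21 glycolysis genes 8 were higher and 4 lower in CD8+ cells (median 0.08), and of 49 genes of the respiratory chain 14 were higher and 10 lower. Over all genes tested 21.6% were higher and 21.4% lower. At least 2-fold, 1 glycolysis gene was higher and 1 lower, and 0 respiratory genes were called. Hif1a, a factor that induces glycolysis, was lower in CD8+ cells at 258 against 397 CPM (-0.62), and Pfkp, a glycolytic kinase, was higher at 295 against 207 CPM (0.51). Without the TFH, Treg and TH17 clusters 8 of 49 respiratory genes were higher and 20 lower (median -0.06). Of all 10535 genes tested there 1962 were higher and 2061 lower. Of 22 genes of survival and death 4 were higher and 11 lower (median -0.17). Bcl2 (92.5 against 144 CPM) and the kinase Pim2 (-0.82), which protect cells, were lower in CD8+ cells, as were the death genes Bbc3 (-1.27) and Fas (-0.69).

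Every cell cycle gene tested was higher in CD8+ cells, 37 of 37 of S phase (median 0.64) and 37 of 37 of G2/M (median 0.67). Mki67, which marks dividing cells, was counted at 1258, 1280 and 1196 CPM against 683, 779 and 733 CPM (0.76). The clusters that the study calls cycling held 53.8, 54.0 and 52.2% of CD8+ cells and 19.6, 21.5 and 23.9% of CD4+ cells. The difference was 31.7 percentage points, with all CD8 pools above all CD4 pools (exact two-sided sign-flip permutation test over pools, p = 0.25, the smallest that 3 pairs allow). Within the cycling clusters Mki67 was lower in CD8+ cells, at 1778 against 1969 CPM (-0.13, adjusted p = 0.00202), and of the 37 genes of each list 1 S phase gene was higher and 1 lower, and 1 G2/M gene was higher and 7 lower. Outside these clusters 4 of 37 S phase and 7 of 37 G2/M genes were higher and 0 lower. Over all genes there 11.1% were higher and 11.5% lower. The clusters were made from the RNA of these cells, so the shares and the expression of cell cycle genes are not independent.

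Because the lineages differed in their share of cycling cells, the comparison was repeated within states. Outside the cycling clusters 2208 of 9769 genes (22.6%) differed, within them 1598 of 9781 (16.3%, 7.41% higher and 8.93% lower in CD8+ cells), and within the effector clusters named for high Cd226 906 of 8221 (11.0%, 4.98% higher and 6.05% lower). Cytotoxic granule genes were higher in CD8+ cells in 10 of 17 outside cycling, 9 of 17 within cycling and 10 of 17 in the Cd226hi clusters, and lower in 3, 3 and 2. Prf1 differed by 2.95, 3.23 and 2.54 in these states, Gzmb by 1.5, 2.03 and 1.51, and Klrk1 by 2.39, 2.92 and 2.21. Zbtb7b differed by -1.93, -1.81 and -1.91 and Tnfrsf4 by -2.70, -2.53 and -2.79, close to their differences over all cells. Runx3 passed outside cycling (0.46) and within it (0.59), but not in the Cd226hi clusters (0.18, adjusted p = 0.223). Killer receptors were higher in 9 of 12, 9 of 11 and 8 of 10 tested. TFH genes were lower in CD8+ cells in 17 of 19 outside cycling and in 9 of 13 in the Cd226hi clusters, with 1 higher in each. Interferon-stimulated genes were lower in 19 of 35 within cycling. In the Cd226hi clusters 7 of 34 passed as lower and 0 as higher, against 6.05% and 4.98% of all genes there, although the median was 0.01.

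**Figure D4:**
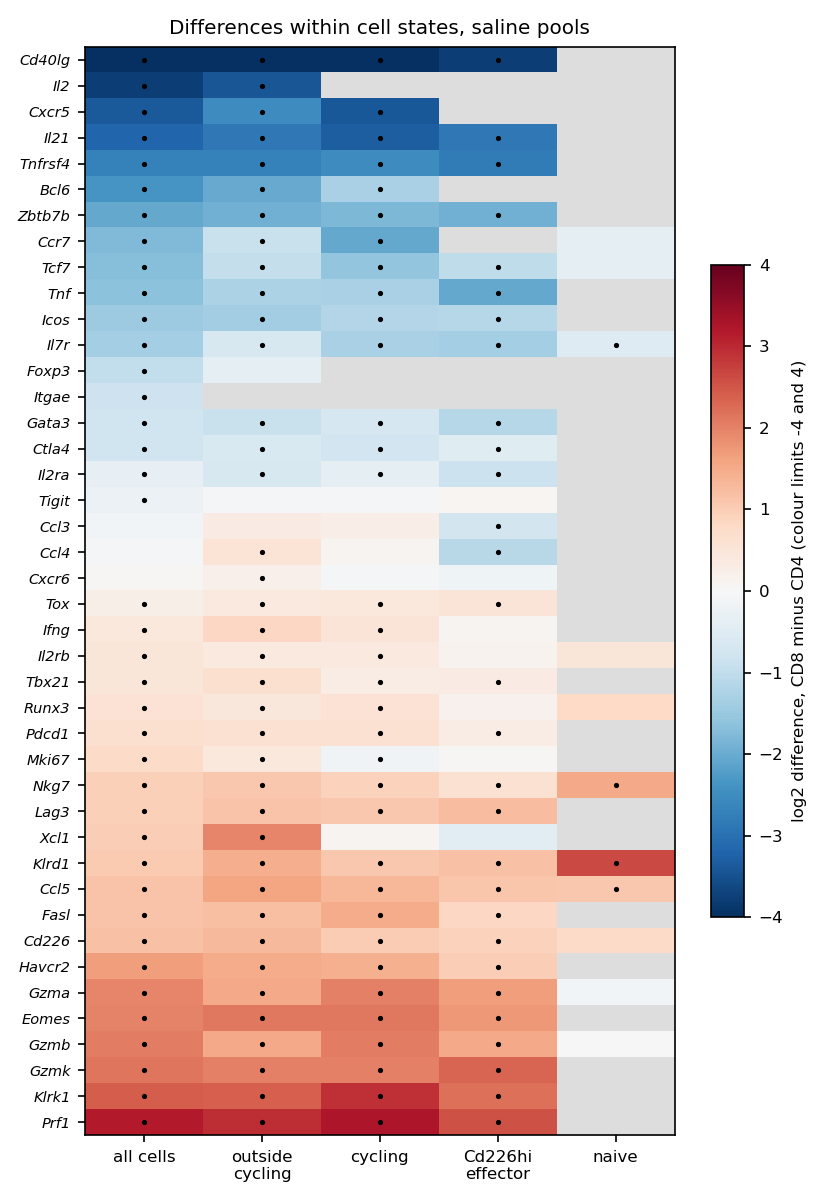
Log2 difference between CD8+ and CD4+ cells for the fixed genes over all saline cells and within 4 cell states; red is higher and blue lower in CD8+ cells, colours are limited to -4 and 4, black points mark an adjusted p under 0.05 and grey marks genes that were not tested for low counts. Prf1, Klrk1 and Gzmk are red and Cd40lg and Zbtb7b blue in each state where they were tested, whereas Ccl3, Ccl4 and Mki67 change colour between states.

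In the naive clusters 392 of 1953 genes (20.1%) differed, 10.7% higher and 9.37% lower in CD8+ cells. Of these, 286 were also called over all cells, and 158 of them in the opposite direction, 68 being genes of ribosomal proteins. Nkg7, Ccl5 and Klrd1 were higher in naive CD8+ cells by 1.5, 1.09 and 2.63. Naive CD8+ cells held a median of 3499 UMIs and naive CD4+ cells 1981, so the depth of the cells moved with this comparison. The part of depth in it was not tested.

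Apart from the myeloid list given above, markers of other cell types gave little RNA to either lineage. The summed B cell markers lay at 26.6 to 28.1 CPM in the CD8 pools and at 24.5 to 28.0 CPM in the CD4 pools, and Ms4a1 was at most 0.455 CPM. Within that list Cd79b was higher in CD8+ cells at 20.4 against 5.42 CPM, and Cd22 was lower, at 5.93 against 19.0 CPM. Erythroid markers summed to 4.4 to 18.1 and 3.6 to 15.5 CPM, gamma-delta T cell markers to 2.9 to 5.3 and 2.5 to 4.6 CPM, plasma cell markers to 1.30 to 5.92 and 0.25 to 1.10 CPM, and platelet markers to 0.15 to 0.26 and 0 to 0.55 CPM. Stromal markers summed to 44.9 to 47.7 and 72.2 to 90.9 CPM, nearly all of it Pecam1, which T cells also express, and Cdh5, Col1a1 and Col3a1 were at most 0.627 CPM.

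Clonality was higher in CD8+ than in CD4+ cells of each pool. The Simpson index, the chance that a pair of cells drawn from a pool carry the same TCR, was 0.00477, 0.00369 and 0.00149 in the CD8 pools and 0.00219, 0.000488 and 0.000433 in the CD4 pools. The difference was 0.00228, although CD8 pool 3 lay below CD4 pool 1 (exact two-sided sign-flip permutation test, p = 0.25, the smallest possible). Cells in clonotypes of at least 2 cells made up 37.8 to 38.3% of CD8+ and 19.7 to 25.8% of CD4+ cells with a clonotype. When 876 cells were drawn from each pool, CD8+ cells held 649, 664 and 680 clonotypes and CD4+ cells 718, 779 and 782. In no pool was a clonotype, here matched by gene segments and nucleotides, found in both lineages. The index, the shares and the clonotype numbers above grouped cells by amino acid sequence, and sharing by that rule was not counted. With the TEa cells included, which carry 1 receptor, the difference was 0.000941 (exact p = 0.5).

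The largest clonotype of each pool with 1 alpha and 1 beta chain, by gene segments and nucleotides, is shown, since large clonotypes weigh most in this index. Their beta chain CDR3 is given 5′ to 3′ as deposited, in lower case with the codons of the first and last residue in capitals.
CD8 pool 1 (57 cells, TRBV17 with TRAV6-6): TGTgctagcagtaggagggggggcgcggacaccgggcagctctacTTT
CD8 pool 2 (60 cells, TRBV13-3 with TRAV16): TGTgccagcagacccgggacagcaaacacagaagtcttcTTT
CD8 pool 3 (21 cells, TRBV5 with TRAV7-6): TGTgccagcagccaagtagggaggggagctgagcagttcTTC
CD4 pool 1 (26 cells, TRBV10 with TRAV10N): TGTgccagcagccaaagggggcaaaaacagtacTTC
CD4 pool 2 (12 cells, TRBV5 with TRAV3D-3): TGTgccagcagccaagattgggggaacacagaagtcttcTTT
CD4 pool 3 (10 cells, TRBV5 with TRAV14-3): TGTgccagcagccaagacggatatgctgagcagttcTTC

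No CDR3 was the same in any pair of these pools, and a clonotype is a family of cells from 1 pool, so its cells are not replicates. Of the 3 CD8 clonotypes 78.9, 90.0 and 81.0% of cells lay in cycling clusters, and of the 3 CD4 clonotypes 42.3, 75 and 50.0%. The share over all cells was 53.3% for CD8+ and 21.7% for CD4+ cells.

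Use of beta chain variable segments differed between the lineages within the same mice. Among 3282 CD8+ and 2729 CD4+ cells with 1 beta chain, 19 segments could be tested and 12 (63.2%) differed by edgeR's quasi-likelihood test on numbers of cells, 5 higher and 7 lower in CD8+ cells. TRBV12-1 was used by 8.90, 6.06 and 6.53% of CD8+ cells and by 0.881, 0.826 and 0.311% of CD4+ cells (log2 difference 3.40). TRBV29 was used by 9.0, 11.4 and 10.2% against 1.51, 1.55 and 1.55% (2.72), and TRBV12-2 by 3.89% against 0.402% on average (3.24). TRBV31 went the other way, with 1.74% of CD8+ and 7.90% of CD4+ cells (-2.19), as did TRBV26 (-1.83), TRBV15 (-1.58), TRBV20 (-1.46) and TRBV1 (-1.28). The joint label TRBV12-2+TRBV13-2, counted among the 19 segments, was used by 8.23% of CD8+ and 6.74% of CD4+ cells (0.29, adjusted p = 0.344). The TRBV12-2 difference thus covers only cells given TRBV12-2 alone. TRBV17 was used by 8.51, 2.05 and 2.53% of CD8+ cells and 1.89, 0.620 and 0.518% of CD4+ cells (2.08), and pool 1 holds the large clonotype with this segment. With each clonotype counted once its difference was 1.53, and without pool 1 it was 1.98 with an adjusted p of 0.0847. TRBV10 (0.48, adjusted p = 0.0367) lost its call when any pool was left out, TRBV2 without pool 1 or 3, and TRBV19 without pool 2 or 3. TRBV5 was called as lower in CD8+ cells without pool 3 (-0.82, adjusted p = 0.00764). With each clonotype counted once 14 segments were called.

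**Figure D5:**
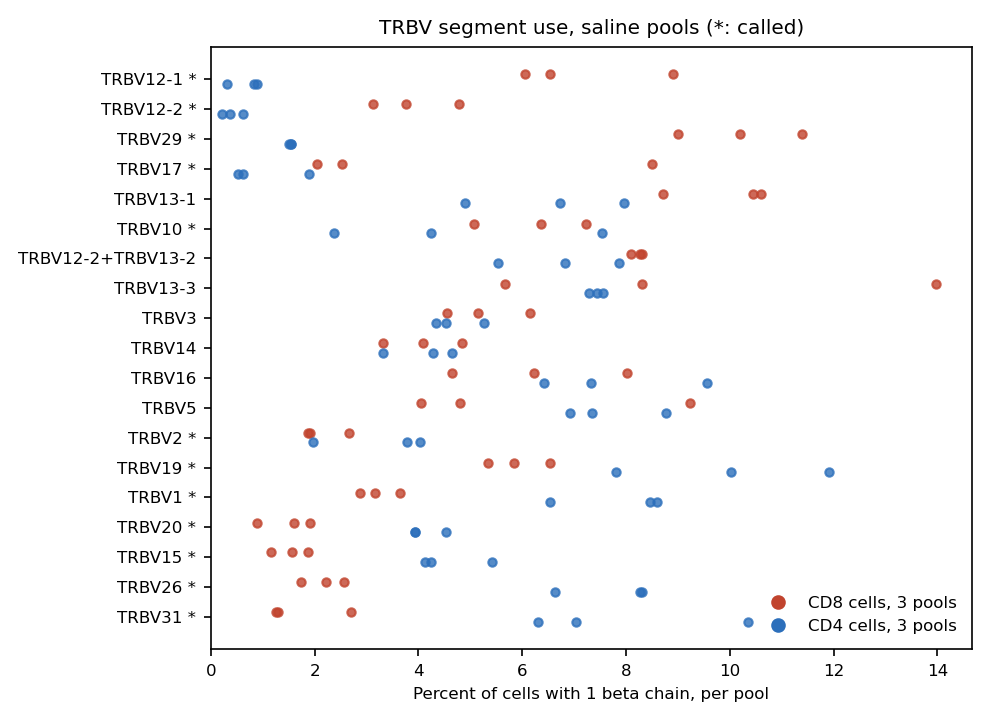
Percent of cells with 1 beta chain that use each TRBV segment, 1 point for each of the 3 saline pools of each lineage; a star marks an adjusted p under 0.05. TRBV12-1 and TRBV29 lie at 6.06% or more in the CD8 pools and at 1.55% or less in the CD4 pools.

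The same difference was then measured in the captures of CSA-treated recipients, whose mice had not entered the comparison above. All 9 pools were fitted together, and the saline difference is part of every contrast of a dose with saline. CPM is scaled here over all 9 pools, so saline levels differ from those given above for the same cells. In 402 of 11001 genes (3.65%) the difference between CD8+ and CD4+ cells changed at the lower dose of 5 mg/kg, and in 2173 (19.8%) at the higher dose of 50 mg/kg. For the lower dose the count was 220, 167 and 298 without pool 1, 2 or 3, and for the higher dose DESeq2 called 729. Of 771 genes with at least a 2-fold difference in saline, 613 (79.5%) were called in the same direction at the lower dose and 472 (61.2%) at the higher, and 2 and 15 in the opposite direction. CD8 against CD4 called 34.3% of all genes at the lower dose and 30.4% at the higher. In the order saline, lower dose, higher dose, Prf1 differed by 3.20, 3.06 and 3.10, and its change at the higher dose did not pass (adjusted p = 0.655). In the same order Gzmb differed by 2.05, 1.84 and 1.01, Gzma by 1.98, 2.5 and 4.28, Cd40lg by -4.41, -4.42 and -6.99, and Mki67 by 0.78, 0.42 and 0.04. Cd8b1 moved as well. In CD4+ cells it stood at 121, 96.6 and 25.7 CPM in that order, and its difference rose from 3.17 to 4.04 and 6.95 (adjusted p of the change 8.95e-09 and 2.46e-22). Gzma in CD4+ cells stood at 306, 353 and 74.0 CPM. Each treatment was a single capture, so the treatment and the level of free RNA in its capture cannot be told apart.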

How the data were processed

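The deposited table held raw UMI counts per gene and cell (10x 5′ chemistry), and the deposited cell tables held antibody and UMI counts, the mitochondrial fraction, clusters, hashtags and TCR clonotypes. The submitters' processing notes name Cell Ranger, mm10 and Seurat 3.0.0, and the authors filtered cells and genes before deposit. Mitochondrial UMIs reached 4.99% in CD8 and 9.64% in CD4 cells, and 25 saline CD4 cells exceeded 5%. No doublet caller was run, and cells with a second strong hashtag (0.18 to 5.9% of a pool) were left out as an alternative. Clusters are the depositors', and the CD8 cluster numbers were matched to the study's names by their cell numbers.

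UMI counts of 18029 genes were summed per pool and lineage and tested with edgeR 4.0.16 (R 4.3.3, filterByExpr, TMM factors 0.992 to 1.006, quasi-likelihood test, pool as block, Benjamini-Hochberg, 0.05). CPM uses TMM library sizes. DESeq2 1.42.0 was an alternative, with other scaling, filters, blocks, cells and pools left out. The fit was tested on simulated data. The pairing comes from the shared mice. Correlations of deviations were 0.063, 0.074 and 0.083 for lineages of 1 pool and -0.025 to -0.046 between pools.

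Members and lists were chosen with earlier results of these data known. Named genes were a fixed set of lineage and effector genes, up to 3 genes a direction of each list (at least 20 CPM, pools not overlapping), and the 10 largest differences a direction (at least 50 CPM). Some genes are not reported here. Other list members named beside them were chosen after their values were seen. Shares of cells were compared by the exact permutation test. No per-sample column was left without a sample (0). Sums of counts limit precision by counting error, which is included in the spread between pools.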

Additional observations from a re-analysis of the deposited data

Results flagged for a closer look

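The difference between CD8+ and CD4+ cells pointed in opposite directions in the saline and the CSA 50 mg/kg captures for 3 of the fixed genes, with the change itself past the threshold of edgeR's quasi-likelihood test. Of 42 fixed genes 38 were called with saline, and 31 of them were called in the same direction at 50 mg/kg. Over all genes called in both captures, 1812 had the same direction and 237 the opposite, so such turns were not particular to these genes. Runx3 was higher in CD8+ cells by 0.58 on the log2 scale with saline. At 50 mg/kg it differed by -0.13 (adjusted p = 0.0445), a change of -0.71 (SE 0.066, adjusted p = 2.74e-08). Tox, higher by 0.25 with saline, was at -0.47 (adjusted p = 0.0157), a change of -0.72 (SE 0.16, adjusted p = 0.00155). Its level was low at 50 mg/kg, at 9.64 CPM in CD8+ and 13.6 CPM in CD4+ cells, against 169 and 143 CPM with saline. Tigit, at -0.21 with saline, was at 0.81, a change of 1.02 (SE 0.093, adjusted p = 2.20e-08). Each rests on 3 pools a group and on 1 capture a treatment, and the Cd8b1 level in CD4+ cells differed between these captures, so capture and treatment cannot be told apart.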

How the results depend on the processing

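Against 4561 genes called, DESeq2 called 2152, and outside the cycling clusters 2208 were called, 472 at least 2-fold against 709. Leaving out 1 pool gave 3688 to 4053 calls and 718 to 756 at least 2-fold, a cycling share difference of 30.4 to 33.4 points and a Simpson difference of 0.00182 to 0.00289, or 0.000941 with TEa cells. Without the pool as replicate block 4326 genes were called, 4319 of them shared with the paired analysis; among the fixed genes it ended only the Itgae call, and TRBV calls fell from 12 to 10. The interaction gave 167 to 298 genes at 5 mg/kg without 1 pool number, and 729 at 50 mg/kg by DESeq2. Directions turned as follows. Gzma was at -0.12 in naive clusters. Ccl3 ranged from -0.35 to 0.22 and Ccl4 from -0.15 to 0.064 without 1 pool, and were at 0.33 and 0.56 outside cycling and 0.25 and 0.10 within it. Cxcr6 was at -0.036 within cycling, -0.16 in Cd226hi clusters and -0.14 without the TFH, Treg and TH17 clusters. In Cd226hi clusters Xcl1 was at -0.44 and Tigit at 0.076, and within cycling Mki67 at -0.13. With clonotypes counted once TRBV13-3 was at -0.034 and TRBV14 at 0.39, and without 1 pool TRBV13-3 ranged from -0.11 to 0.59, TRBV14 from -0.099 to 0.093 and TRBV16 from -0.61 to 0.045. The cause was not tested. The alternatives on clusters named for Isg15 or for TFH, Treg and TH17 cells and on a mitochondrial limit of 5% were chosen after seeing the data.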
